A study of Mus musculus with 5 samples.

Results

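Nuclear-encoded genes of the mitochondrial respiratory chain were followed through single-cell RNA-seq libraries of mouse colon. The set comprised all gene symbols that start with Nduf, Sdh, Uqcr, Atp5, Cox4, Cox5, Cox6, Cox7 or Cox8 and that are listed in all 5 count tables, which gave 93 of 17353 shared symbols. It held 37 genes placed by symbol with complex I, 4 with complex II, 8 with complex III, 14 with complex IV and 15 with complex V, that is 78 subunits. A further 11 were assembly factors (Ndufaf and Sdhaf symbols), 2 were isoforms kept apart (Ndufa4l2 and Cox4i2), and 2 were factors with an Atp5 symbol that are not counted among the subunits (Atp5s and Atp5sl). Cox6a2, Cox8b and Cox8c were missing from at least 1 of the tables and were not members.

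The respiratory chain sits in the inner mitochondrial membrane, where complexes I to IV pass electrons from NADH and succinate to oxygen and complex V uses the resulting proton gradient to make ATP. Most subunits are encoded in the nucleus and imported, and a small core set is encoded by mitochondrial DNA. In the colon, surface absorptive cells are known for oxidising butyrate, whereas crypt base and tumor cells rely more on glycolysis. Several subunits have paired isoforms that differ by tissue or by oxygen supply.

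All mice were wild type (WT), and every library was made with the inDrop droplet method. Of the 5 libraries, 4 were distal colonic tumors of the AOM/DSS type, raised with the mutagen azoxymethane and the colitis agent dextran sulfate, a model of inflammation-driven colon cancer, from mice given 5FU+Irinotecan, taken at day 1 (replicates 1 and 2), day 3 and day 6. The remaining library was untreated normal colon put through a fibroblast dissociation, in which crypts were shaken off before digestion, so its colonocytes are those that remained. There was no untreated tumor library, and day 3, day 6 and normal colon had 1 library each. Day 1 was the early and days 3 and 6 the late time point. The single-index structure and a BGI MGI-Seq were used for day 3 and the first day 1 replicate, and the dual-index structure and a NovaSeq6000 for the second day 1 replicate, day 6 and the normal colon. The study's text calls the day 1 libraries biological replicates, and likewise days 3 and 6, but the labels name no animal or age for any library, so p-values measure only the spread between these libraries.

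After cells with under 500 genes or over 15% mitochondrial counts were removed, the libraries held 748 to 2826 cells, 8491 in all, with a median of 2903 to 3601 unique molecular identifiers (UMIs) per cell. Of 8330 distinct barcodes, 159 occurred in more than 1 library, and any pair of libraries shared 4 to 41. Cells were clustered without the members, classes were named from marker genes, and UMIs were summed per library and class. Levels are counts of UMIs scaled to a fixed total per sum (CPM, counts per 1000000 UMIs). Reads were taken at the 3′ end and counted as molecules, so CPM was not divided by transcript length. Stem-like columnar sums carried 4020 to 4892 CPM of the 12 stem markers, against 629 to 1060 CPM in differentiated sums of the same 3 libraries. Squamous sums carried 26432 to 50670 CPM of the 16 squamous markers, and columnar sums 1501 to 4069 CPM. The larger of the stem-like clusters, 528 cells, exceeded the non-epithelial clusters in only 3 columnar markers, and a day 6 cluster of 513 cells with a median of 1262 UMIs stayed unnamed and outside the classes. Epcam and Phgr1 were absent from the tables, so 10 of the 12 columnar markers were measured.

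The chain as a whole was highest in normal surface colonocytes. Summed over the 78 subunits, surface (differentiated columnar) cells of the normal colon held 38612 CPM, with a 95% exact Poisson interval of 38312 to 38915, and crypt (stem-like columnar) cells held 29111 CPM, with an interval of 28836 to 29387. Fibroblasts of the same library held 11103 CPM, telocytes 10880, pericytes 14703 and myofibroblasts or smooth muscle 17573. The surface cells thus held the highest and the plasma cells, at 9158 CPM, the lowest sum among the classes of that library with at least 20 cells. The Poisson intervals cover counting error only.

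In the treated tumors, columnar cells held 23301 and 18353 CPM in the day 1 libraries (replicates 1 and 2, in this order throughout), 26743 CPM at day 3 and 26017 CPM at day 6. Squamous cells held 20386, 16499, 25961 and 20169 CPM in the same order. Within each library the squamous sum was below the columnar sum, while between libraries the ranges overlapped widely. Tumor fibroblasts held 11731 CPM in day 1 replicate 2, 23793 CPM at day 3 and 18647 CPM at day 6, with only 14 cells in day 1 replicate 1, too few for a sum. The day 3 fibroblasts, 30 cells, also held 7462 CPM of columnar markers, against 627 CPM in normal fibroblasts. The part of free or doublet RNA in their level was not tested.

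**Figure D1:**
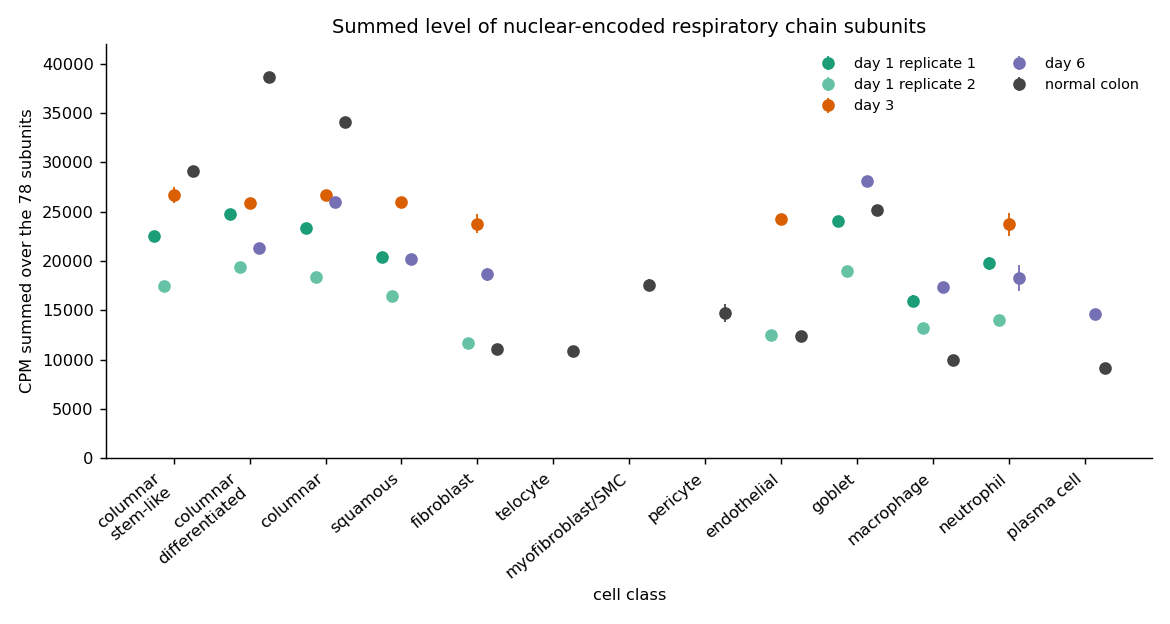
CPM summed over the 78 nuclear-encoded subunits (y axis), for each cell class (x axis) and library (colour), with 95% exact Poisson intervals where they are wider than the point. Normal surface colonocytes stand at 38612 CPM, above every treated tumor sum, and day 1 replicate 2 lies lowest of the tumor libraries in columnar, squamous, fibroblast and neutrophil sums.

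Levels differed strongly within each complex. In normal surface cells Cox4i1, an early-assembling subunit of complex IV, stood at 2625 CPM, Cox7c at 2419 CPM and Atp5g3, a subunit of the complex V c-ring, at 2009 CPM. In day 6 columnar tumor cells the 3 highest members were Atp5g3 at 2078 CPM, Cox7c at 1735 CPM and Atp5a1, the alpha subunit of the complex V head, at 1714 CPM. The members are compact genes, with a median span of 7690 bases on GRCm38.p6 against 18964 bases for all symbols. Of the members, 82.8% span less than 20 kb, against 51.5% of all symbols, and 3 members (Cox7b2, Ndufaf2 and Ndufs4) span over 100 kb.

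The first comparison asked whether the chain differs between differentiated and stem-like columnar tumor cells of the same libraries. It used both day 1 libraries and day 3, since day 6 had only 18 stem-like cells. The day 3 stem-like sum held 28 cells. Summed over the subunits, differentiated cells held 24805, 19414 and 25903 CPM in day 1 replicate 1, day 1 replicate 2 and day 3. Stem-like cells held 22545, 17458 and 26678 CPM, so at day 3 the differentiated sum was the lower. Each of the 5 complexes had subunits that rose in differentiated cells, on a scale set by the median gene. With edgeR, library as a block and TMM scaling, 36 of 91 members tested were higher in differentiated cells and 5 lower at an adjusted p under 0.05, where 20% of all 10960 genes tested were higher and 17.9% lower (37.9% in either direction). The median log2 change was 0.44 over the 77 subunits tested and -0.02 over all genes.

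With subunits placed by symbol, 11 of 37 in complex I rose and 1 fell, in complex II 3 of 4 rose and in complex III 5 of 8. In complex IV 8 of 13 rose and 1 fell, and in complex V 9 of 15 rose. The 1 that fell under complex I was Ndufa4, since placed with complex IV. Of the 11 assembly factors 2 were lower and 0 higher by edgeR, where 17.9% of all genes were lower and 20% higher. Their median log2 change was -0.33. At an unadjusted edgeR p under 0.05 there were 3, where 4998 of 10960 genes passed. The 9 mitochondrially encoded subunits tested had a median log2 change of 0.08.

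The size and sign of these changes are relative to the scaling. TMM assumes that most genes do not change, and with library size alone the median of all genes moved to -0.39. The median over the 91 members moved with it, from 0.38 to 0.02. On that scale 16 members passed, 6 higher and 10 lower, where 12.1% of all genes were higher and 34.3% lower (46.5% in either direction). The 6 that stayed higher were Atp5k, Cox6a1, Cox7a1, Ndufa9, Uqcrb and Uqcrfs1. In plain CPM the median log2 ratio of the subunits, differentiated over stem-like, was 0.12 and 0.12 at day 1 and -0.08 at day 3, beside -0.35, -0.38 and -0.43 for all genes tested. Genes that span over 100 kb had a median log2 change of -0.33 under TMM and genes under 20 kb 0.11. Stem-like sums held 14.2%, 18.6% and 11.6% of their UMIs on genes over 100 kb and differentiated sums 10.3%, 11.99% and 8.41%. The part of gene length in the subunit shift was not tested.

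Among named members, Cox6a1, the common form of complex IV subunit 6A, had 587, 386 and 700 CPM in stem-like cells of both day 1 libraries and day 3. Differentiated cells had 864, 553 and 917 CPM of Cox6a1. It was higher in differentiated cells in 3 of 3 libraries, with a log2 change of 0.85 ± 0.17 (SE, edgeR adjusted p = 0.000202). Uqcrfs1, the Rieske iron-sulfur protein of complex III, had 233, 144 and 153 CPM in stem-like and 313, 185 and 237 CPM in differentiated cells, also higher in all 3 libraries (log2 change 0.81 ± 0.17, edgeR adjusted p = 0.000523). Ndufa9, a complex I subunit near the quinone site, had 76.8, 124 and 31.8 CPM in stem-like and 103, 158 and 87.6 CPM in differentiated cells (log2 change 0.86 ± 0.20, edgeR adjusted p = 0.00102).

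Uqcrb, which helps to bind ubiquinone in complex III, went from 245 to 410 CPM in day 1 replicate 1 and from 170 to 246 CPM in day 1 replicate 2, but from 50.9 to 27.1 CPM at day 3. Its log2 change of 0.86 ± 0.21 (edgeR adjusted p = 0.00165) therefore rests on the day 1 libraries. Atp5k, a small membrane subunit of complex V, had 116, 85.7 and 89.1 CPM in stem-like and 166, 113 and 116 CPM in differentiated cells (log2 change 0.80 ± 0.18, edgeR adjusted p = 0.000842). Of the core catalytic subunits, Ndufv1, the NADH-binding subunit of complex I, rose by 0.60 ± 0.19 (edgeR adjusted p = 0.0152), while its partner Ndufs1 did not pass, with 94.0, 108 and 70.0 CPM in stem-like and 84.7, 80.2 and 56.8 CPM in differentiated cells. Sdha, the catalytic subunit of complex II, rose by 0.61 ± 0.18 (edgeR adjusted p = 0.00728), and Sdhb, its iron-sulfur partner, had 158, 156 and 134 CPM against 207, 161 and 95.02 CPM.

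The promoter windows below, from 250 bases before to 50 bases after the RefSeq start on GRCm38.p6, are shown for 2 subunits that rose and hold an exact binding core of NRF1 (a nuclear respiratory factor known to bind promoters of respiratory chain genes), for the muscle-type isoform Cox7a1, and for Ndufa4, which fell. Each is printed 5′ to 3′ on the strand of the gene, and capitals mark the NRF1 core GCGCATGCG, which matches both strands in a run of overlapping letters.
Cox6a1, chr5:115348909-115349208, minus strand: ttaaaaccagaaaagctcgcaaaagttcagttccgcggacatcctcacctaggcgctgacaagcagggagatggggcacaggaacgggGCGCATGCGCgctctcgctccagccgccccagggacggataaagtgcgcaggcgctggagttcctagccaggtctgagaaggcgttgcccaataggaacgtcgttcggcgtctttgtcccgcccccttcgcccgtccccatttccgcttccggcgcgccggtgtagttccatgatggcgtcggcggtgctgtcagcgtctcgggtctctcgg
Atp5k, chr5:108434350-108434649, minus strand: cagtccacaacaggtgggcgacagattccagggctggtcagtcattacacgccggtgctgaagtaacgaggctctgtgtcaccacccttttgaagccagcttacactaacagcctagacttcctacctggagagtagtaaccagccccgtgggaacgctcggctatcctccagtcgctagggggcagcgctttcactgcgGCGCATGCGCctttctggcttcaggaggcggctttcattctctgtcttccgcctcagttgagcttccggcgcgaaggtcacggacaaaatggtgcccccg
Cox7a1, chr7:30183921-30184220, plus strand: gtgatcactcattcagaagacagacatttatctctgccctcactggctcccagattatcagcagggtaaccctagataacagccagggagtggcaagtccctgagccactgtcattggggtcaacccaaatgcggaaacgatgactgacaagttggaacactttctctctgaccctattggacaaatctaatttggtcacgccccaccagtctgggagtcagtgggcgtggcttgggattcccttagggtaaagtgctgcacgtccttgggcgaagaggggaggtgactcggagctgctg
Ndufa4, chr6:11907401-11907700, minus strand: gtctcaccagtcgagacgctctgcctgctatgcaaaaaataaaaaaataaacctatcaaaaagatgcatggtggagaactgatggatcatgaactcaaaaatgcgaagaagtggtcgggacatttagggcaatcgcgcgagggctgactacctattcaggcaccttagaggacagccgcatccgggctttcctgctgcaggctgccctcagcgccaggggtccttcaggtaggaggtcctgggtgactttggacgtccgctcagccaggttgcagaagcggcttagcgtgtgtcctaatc

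Cox6a1 and Atp5k hold the NRF1 core, and the other two windows hold none of the 4 motifs searched. Of 66 subunits with a window, 8 (Atp5g2, Atp5k, Atp5l, Cox6a1, Ndufa11, Ndufa8, Uqcr11 and Uqcrc1), or 12.1%, had the core on either strand, against 1.95% of all 27025 genes with a window. A YY1 core (ATGGCGGC) was in 6 subunit windows (Ndufa7, Ndufa9, Ndufb5, Ndufs4, Ndufs6 and Ndufs7), 9.09% against 2.60%. An estrogen-related receptor site (TCAAGGTCA) was in 2 (Atp5g3 and Sdhd), 3.03% against 0.466%, and an ETS site of the GABPA type (CCGGAAGT) in 5, 7.58% against 4.31%. The letters of no motif are contained in another, and a match is a description of the sequence only. The printed windows were picked with motif and change in view, and a link between motif and change was not tested. The median GC content was 58.3% in the 76 member windows and 52.7% in all windows, and it was 63.0% for Cox6a1, 58.7% for Atp5k and 53.0% for both Cox7a1 and Ndufa4.

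Several members are isoforms of the same subunit, and no difference between isoforms was tested. Cox7a1 (chr7:30184171-30186030), the heart and skeletal muscle form of complex IV subunit 7A, had 7.16, 6.33 and 6.36 CPM in stem-like and 30.5, 8.74 and 24.1 CPM in differentiated cells. The day 3 stem-like value is 1 UMI. Cox7a1 was higher in 3 of 3 libraries, with the largest log2 change of the members called, 1.52 ± 0.40 (edgeR adjusted p = 0.00378). Its widespread partner Cox7a2 rose by 0.71 ± 0.17 (edgeR adjusted p = 0.00173), whereas Cox7a2l, a related protein of respiratory supercomplexes, did not pass and had 321, 307 and 464 CPM in stem-like and 207, 290 and 404 CPM in differentiated cells.

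Cox6b2 (chr7:4751792-4753094), the testis form of subunit 6B, had 32.4, 26.0 and 6.36 CPM in stem-like and 13.6, 3.44 and 3.09 CPM in differentiated cells. Its day 3 values are 1 and 5 UMIs. Cox6b2 was lower in 3 of 3 libraries and had the deepest fall of the members called, -1.84 ± 0.41 on the log2 scale (edgeR adjusted p = 0.000752). The common form Cox6b1 rose by 0.58 ± 0.17 (edgeR adjusted p = 0.00808). Ndufa4, first described as a complex I subunit and since placed with complex IV, had 373, 318 and 286 CPM in stem-like and 168, 223 and 129 CPM in differentiated cells, a log2 change of -0.53 ± 0.18 (edgeR adjusted p = 0.0249). The other members that were lower were Atp5sl (-0.81 ± 0.31, edgeR adjusted p = 0.0426) and the complex II assembly factors Sdhaf4 (-0.63 ± 0.25, edgeR adjusted p = 0.0492) and Sdhaf1 (-0.59 ± 0.23, edgeR adjusted p = 0.0444). Leaving out day 1 replicate 2 left 13 of 88 members called, where 2401 of 9745 genes were. Of these members 10 were higher, where 1351 genes were. Leaving out day 1 replicate 1 left 25 of 91 members, where 3689 of 11794 genes were called. Without the library block 1 of 91 members was called, where 1521 of 10960 genes were.

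**Figure D2:**
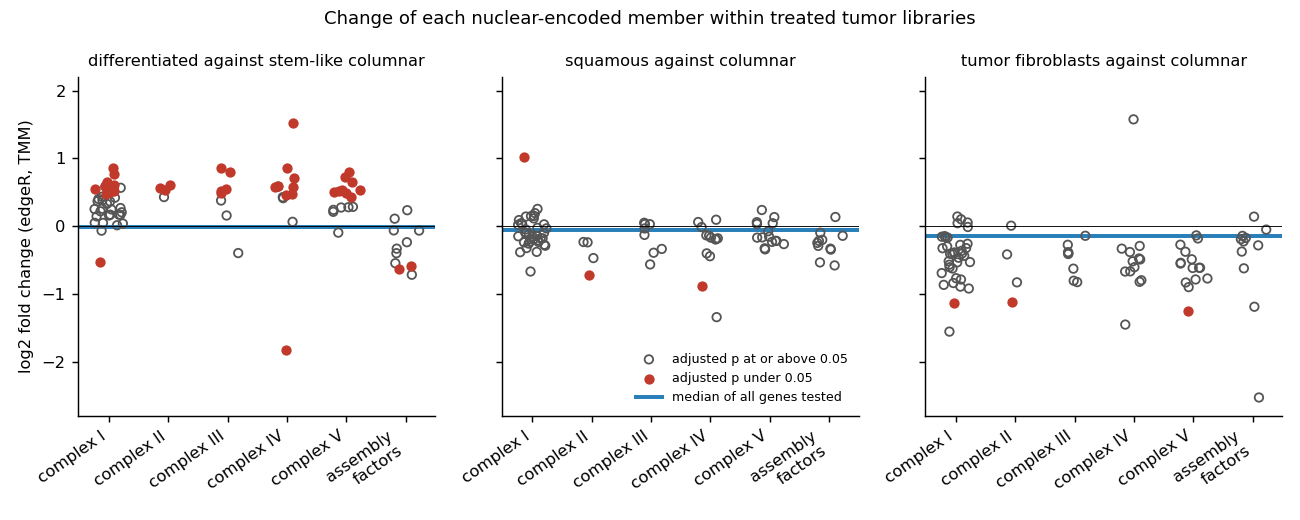
Log2 fold change of each member from edgeR with TMM scaling (y axis), grouped by complex (x axis), for 3 comparisons within treated tumor libraries. Filled points passed an adjusted p of 0.05, open points did not, and the blue line is the median of all genes tested. Most subunits of every complex lie above that line in differentiated cells, and few members pass in squamous cells or fibroblasts.

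The next comparison set squamous against columnar tumor cells within the 4 treated libraries. Few members of the chain differed. Of 92 members tested, 2 were higher and 2 lower in squamous cells, where 7.56% of 12253 genes were higher and 9.08% lower (16.6% in either direction). The median log2 change was -0.16 over the 77 subunits and -0.06 over all genes. In plain CPM, 53, 60, 40 and 66 of the 77 subunits were lower in squamous cells, in the order day 1, day 1, day 3, day 6. The median log2 ratio of the subunits was -0.20, -0.16, -0.01 and -0.38, beside -0.10, -0.28, -0.07 and 0.15 for all genes tested. In day 1 replicate 2 and at day 3 the subunits thus lay above the median gene, and in day 1 replicate 1 and at day 6 below it.

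The largest fitted change of the 4 was that of Ndufa4l2 (chr10:127509274-127517154), a relative of Ndufa4 known to be induced by hypoxia-inducible factor and to lower complex I activity. Columnar cells had 0, 0.0880, 0.690 and 1.16 CPM in the same order, from 0, 1, 3 and 9 UMIs. Squamous cells had 16.5, 4.85, 11.2 and 41.7 CPM, from 6, 5, 13 and 192 UMIs. All 4 squamous sums were above all 4 columnar sums, and the log2 change was 5.06 ± 0.54 (edgeR adjusted p = 0.000911). Ndufa4l2 passed the filter on low counts through the squamous sums, and columnar cells were near 0, so the fitted fold depends on the prior count. Most of the squamous UMIs came from day 6. The gene entered the test through the class where it is high. Its p-value and its calls in other fits are therefore no independent support.

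Within day 6, Ndufa4l2 was found in 3 squamous clusters. The cluster led by Trp63 and Krt17 had 49.3 CPM, with a UMI in 56 of 309 cells, the cluster with most Krt13 had 36.3 CPM and the third had 31.8 CPM. Ndufa4l2 is also a known pericyte gene, so pericyte markers were read in the same sums. The 7 pericyte markers summed to 56.2 to 82.3 CPM in the squamous sums, with Higd1b at 0 in all 4, against 20342 CPM in normal pericytes.

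Ndufa4 moved the same way as its relative. Columnar cells had 318, 283, 189 and 227 CPM and squamous cells 472, 815, 241 and 604 CPM, higher in 4 of 4 libraries and with groups that overlap between libraries. The log2 change was 1.03 ± 0.25 (edgeR adjusted p = 0.0247), and it lost the call without either day 1 library. Cox5a, which with Cox4 starts the assembly of complex IV around subunit 1, had 14.6, 36.7, 7.36 and 68.6 CPM in columnar and 8.23, 20.4, 3.46 and 36.1 CPM in squamous cells, the latter from 3, 21, 4 and 166 UMIs. It was lower in 4 of 4 libraries, with a log2 change of -0.89 ± 0.25 (edgeR adjusted p = 0.0408). Sdhd, a membrane anchor of complex II, had 199, 135, 187 and 201 CPM in columnar and 134, 72.7, 125 and 98.4 CPM in squamous cells (log2 change -0.72 ± 0.19, edgeR adjusted p = 0.0373). With any 1 library left out, or at clustering resolution 0.5, neither Cox5a nor Sdhd was called, and without day 3 the members called lower were Cox7a1 and Ndufa6.

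Tumor fibroblasts were set against columnar cells in day 1 replicate 2, day 3 and day 6. Of 90 members tested, 0 were higher and 3 lower in fibroblasts by edgeR, where 6.8% of 11532 genes were higher and 3.84% lower (10.6% in either direction). By DESeq2, 0 members were higher and 1 was lower, where 3.04% of all genes were lower. An unadjusted edgeR p under 0.05 was found for 21 of the 90 members, a share close to the 23.0% of all genes. The median log2 change of the subunits was -0.49 and that of all genes -0.14. Atp5c1, the gamma subunit that forms the rotating stalk of complex V, had 337, 362 and 375 CPM in columnar cells and 135, 230 and 136 CPM in fibroblasts. Its groups did not overlap, with a log2 change of -1.25 ± 0.30 (edgeR adjusted p = 0.0200).

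Ndufa6, an accessory subunit of complex I, had 197, 268 and 296 CPM in columnar cells and 88.4, 184 and 111 CPM in fibroblasts (log2 change -1.14 ± 0.31, edgeR adjusted p = 0.0381). Sdhd had 135, 187 and 201 CPM against 54.7, 119 and 92.6 CPM (log2 change -1.13 ± 0.32, edgeR adjusted p = 0.0448). Both fell within each of the 3 libraries. The count of members called ran from 0 of 91 without day 6 to 6 of 90 without day 3. In these fits 1023 of 11716 and 1998 of 12986 genes were called.

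Late and early treatment were compared in each epithelial class, with 2 libraries a side. No member passed in columnar cells (0 of 91, where 0.0% of 13276 genes passed by edgeR), in squamous cells (0 of 89, where 0.0% of 9747 passed) or for the difference between both classes (0 of 92, where 0.0% of 12253 passed). At an unadjusted p under 0.05 edgeR had 8, 3 and 3 members in these tests, where 16.2%, 3.96% and 9.32% of all genes passed. DESeq2 called 3 members in columnar cells (Cox8a higher, Cox6b2 and Uqcrb lower), 1 in squamous cells (Uqcrb lower) and 0 for the difference, where it called 4.76%, 0.205% and 0.571% of all genes. Over the subunits the median log2 change, late over early, was 0.59 in columnar and 0.33 in squamous cells, against 0.02 and 0.04 for all genes. Cells of day 1 replicate 2 and late cells of a class lay largely in different clusters, while day 1 replicate 1 shared more with day 3. Of the 899 columnar cells at day 3, 638 and 229 fell in 2 clusters. These held 4 cells each of day 1 replicate 2, but 50 and 31 of the 278 columnar cells of day 1 replicate 1. Day 6 columnar cells were mostly in 3 others, with 312, 277 and 240 cells, which held 1, 23 and 0 cells of day 1 replicate 2. Of the squamous cells, 122 of 188 in day 1 replicate 2 and 269 of 280 at day 3 fell in 1 cluster each. That day 3 cluster also held 20 of the 51 squamous cells of day 1 replicate 1. At day 6 309, 272 and 145 of 728 squamous cells fell in 3 others, and the cluster with 309 also held 46 cells of day 1 replicate 2. Over the 91 columnar members the median was 0.52 with TMM and 0.10 with library size alone, which moved that of all genes to -0.39. With TMM the median of the columnar members was 0.70 without day 3 and 0.25 without day 6, beside -0.06 and -0.06 for all genes. In these fits the lone late library is assumed to vary like the early ones, so their calls are not given.

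Uqcrb (chr13:66900576-66905350) had the most negative fitted change, late over early, of the members in squamous cells and, after Cox6b2, in columnar cells. In columnar cells it had 288 and 199 CPM at day 1, 36.6 CPM at day 3 and 55.5 CPM at day 6. In squamous cells it had 242 and 230 CPM at day 1, 44.1 CPM at day 3 and 44.8 CPM at day 6. Late and early values did not overlap in either class, and the log2 change was -1.98 ± 0.43 in columnar cells (edgeR adjusted p = 0.216) and -2.26 ± 0.48 in squamous cells (edgeR adjusted p = 0.917). Uqcrb was picked for its fitted change, and the share of all genes without such overlap was not counted. With 2 libraries a side, the lack of overlap alone therefore carries little weight. Over all cell classes, immune and stromal included and columnar cells taken as 1 class, 17 early sums held 94.1 to 382 CPM and 18 late sums 14.2 to 103 CPM. The normal library held 665 CPM in surface and 275 CPM in crypt cells.

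Cox8a (chr19:7215158-7217616), a small complex IV subunit, had higher values in the late columnar and squamous sums. Columnar cells had 1008 and 624 CPM at day 1, 2080 CPM at day 3 and 1384 CPM at day 6, and squamous cells 815, 483, 2143 and 1068 CPM. The log2 change was 1.48 ± 0.49 in columnar cells (edgeR adjusted p = 0.254), and over all classes early sums ran from 270 to 1223 CPM and late sums from 731 to 2598 CPM. The mitochondrially encoded subunits summed to 27896 and 34854 CPM at day 1, 8306 CPM at day 3 and 12416 CPM at day 6 in columnar cells, with a median log2 change of -1.03 over the 9 tested. Animal, day of harvest and library cannot be told apart at days 3 and 6.

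Library structure crossed the time points and split many members. In both columnar and squamous cells, the 2 single-index and the 2 dual-index libraries did not overlap for 33 of 92 members, where 17.4% of 12253 genes were so split. The single-index libraries were lower for 15 of them and higher for 18. Examples chosen after their values were seen are Cox5a, with 7.36 to 14.6 CPM in single-index and 36.7 to 68.6 CPM in dual-index columnar cells, and Atp5g2, with 24.8 to 33.7 against 105 to 116 CPM. In the other direction Ndufb10 had 188 to 218 against 64.0 to 75.2 CPM. Instrument, read length and library structure changed together and cannot be told apart, and comparisons within a library, as above, hold them fixed.

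**Figure D3:**
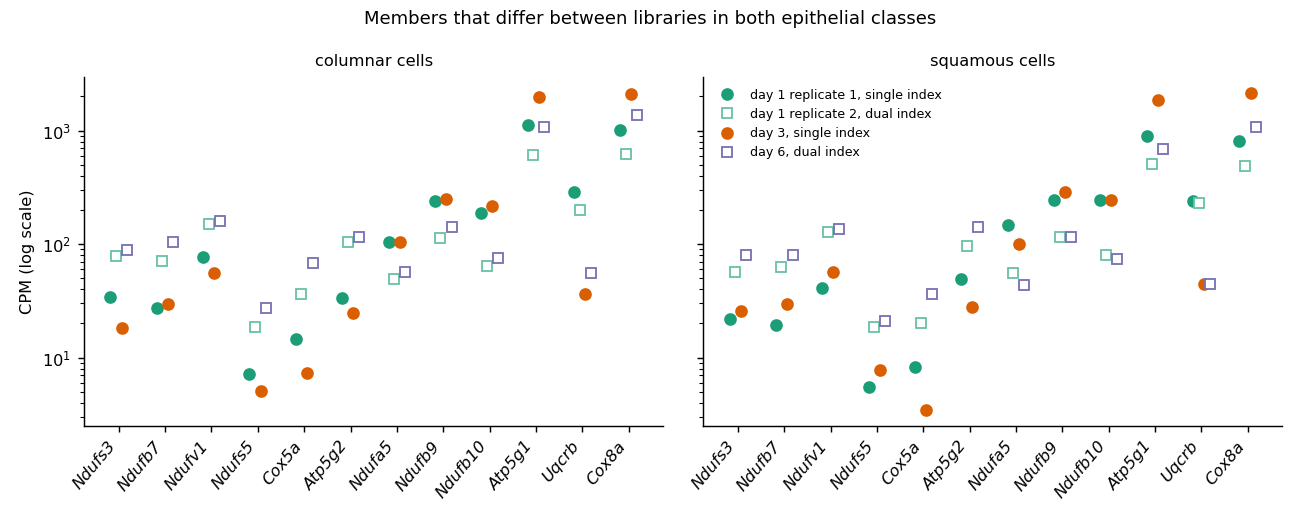
CPM on a log scale (y axis) of 12 members (x axis), chosen after their values were seen, in columnar (left) and squamous cells (right) of the 4 treated libraries. Circles are single-index and squares dual-index libraries. Cox5a, Atp5g2 and Ndufb10 split by library structure in both classes, Uqcrb splits by time, at 36.6 and 55.5 CPM in late against 199 and 288 CPM in early columnar cells.

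In the normal colon, with 1 library and no test, surface and crypt colonocytes were compared with fold limits only. Of 76 subunits with at least 20 UMIs, 64 had a higher CPM in surface cells. The median log2 ratio of the subunits was 0.29, against -0.19 for all 9969 genes with enough UMIs. At least 2-fold higher were 2 members, where 7.59% of genes were, and 0 were at least 2-fold lower, where 17.1% of genes were. Complex IV had a median of 0.70, complex I 0.27, complex II 0.24, complex III 0.17 and complex V 0.13, and the assembly factors -0.25.

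The 2 members past the limit were Cox7a1 and Uqcrb. Cox7a1 had 126 CPM in surface and 28.4 CPM in crypt cells, from 207 and 42 UMIs, a log2 ratio of 2.14. Uqcrb had a log2 ratio of 1.27. The fixed complex IV subunits Cox4i1 and Cox5a had log2 ratios of 0.61 and 0.80. Ndufa4 was lower at the surface, at 78.2 against 106 CPM, from 128 and 157 UMIs, a log2 ratio of -0.44. Cox7a1 and Ndufa4 thus had the same sign here as between differentiated and stem-like tumor cells. Uqcrb shared the sign of the day 1 tumor libraries but not of day 3. Of the other members with the largest called rises there, Cox6a1 and Uqcrfs1 had log2 ratios of 0.72 and 0.76 here, and Ndufa9 -0.003. Atp5sl, Sdhaf1 and Sdhaf4, called lower there, had -0.24, -0.50 and -0.36, beside a median of -0.19 for all genes. These rest on 78 and 83, 43 and 55, and 44 and 51 UMIs in surface and crypt cells. Cox6b2 had 7 and 8 UMIs, too few to compare.

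Against normal fibroblasts, 67 of 77 subunits were at least 2-fold higher in surface colonocytes, where 24.7% of 9746 genes were, and 1 was at least 2-fold lower, where 24.7% of genes were. The median log2 ratio was 1.75 over the subunits and -0.01 over all genes. Complex IV had a median of 2.48, complex III 2.26, complex V 1.93, complex II 1.76 and complex I 1.56, and the 10 assembly factors with enough UMIs 0.19. The 1 lower subunit was Cox6b2, at 4.28 CPM in surface cells and 30.4 CPM in fibroblasts, with 57.6 CPM in telocytes. Its Poisson interval in telocytes, 32.2 to 95.01 CPM, lies above that of surface cells, 1.72 to 8.81 CPM. Ndufa4 and Cox7a2l differed little, with log2 ratios of -0.29 and 0.37.

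**Figure D4:**
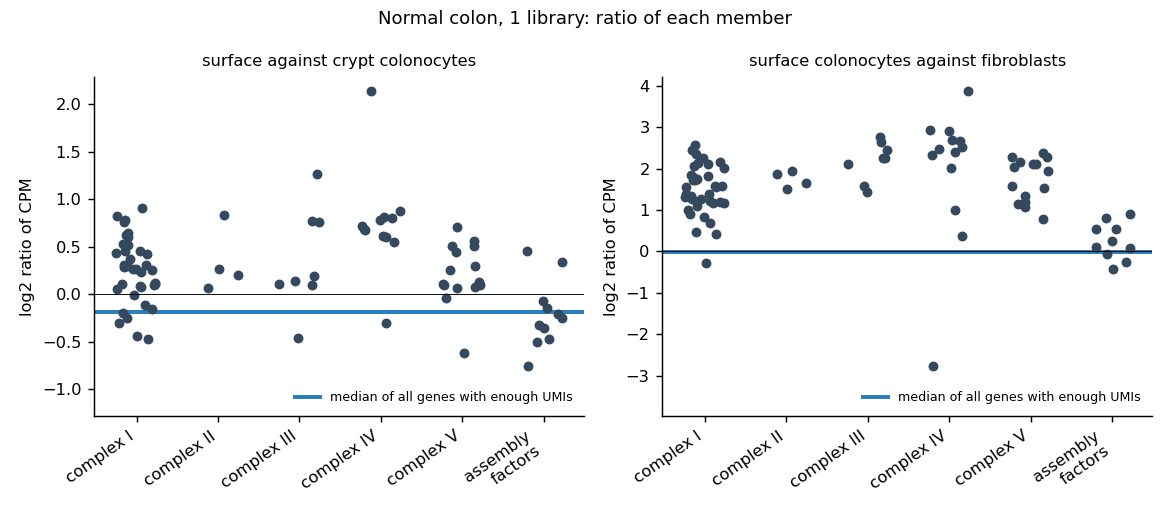
Log2 ratio of CPM for each member with at least 20 UMIs (y axis), grouped by complex (x axis), in the 1 normal colon library, surface over crypt colonocytes (left) and surface colonocytes over fibroblasts (right). The blue line is the median of all genes with enough UMIs. Complex IV has the highest median in both panels, 0.70 and 2.48, and the lowest point on the right is Cox6b2 at -2.76.

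The 2 isoforms kept apart were highest in pericytes of the normal colon. Ndufa4l2 stood at 217 CPM in pericytes, with an interval of 121 to 358 CPM, from 15 UMIs in 11 of 26 cells. Endothelial cells had 33.5 CPM from 6 UMIs, fibroblasts 3.97 CPM, and telocytes, myofibroblasts and surface colonocytes 0 UMIs. In tumor fibroblasts it had 29.5 CPM in day 1 replicate 2 and 0 UMIs at days 3 and 6. That day 1 fibroblast sum also held 2996 CPM of the 7 pericyte markers, against 138 CPM at day 3 and 377 CPM at day 6.

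Cox4i2 (chr2:152753916-152765039), the lung and low-oxygen form of complex IV subunit 4, had 101 CPM in normal pericytes from 7 UMIs, with an interval of 40.7 to 209 CPM. Telocytes and endothelial cells had 11.5 and 11.2 CPM from 3 and 2 UMIs. In columnar tumor cells Cox4i2 had 7.44, 6.51, 5.98 and 0.515 CPM over the 4 libraries, and in squamous cells 2.74, 3.88, 1.73 and 0.652 CPM. Its squamous over columnar log2 change was -0.81 ± 0.51 (edgeR adjusted p = 0.342) beside 5.06 for Ndufa4l2, and the difference between both genes was not tested. The common form Cox4i1 stood at 694 to 1226 CPM in the squamous sums. Cox7b2 had at most 4 UMIs in any columnar, squamous or stromal sum and was not tested.

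**Figure D5:**
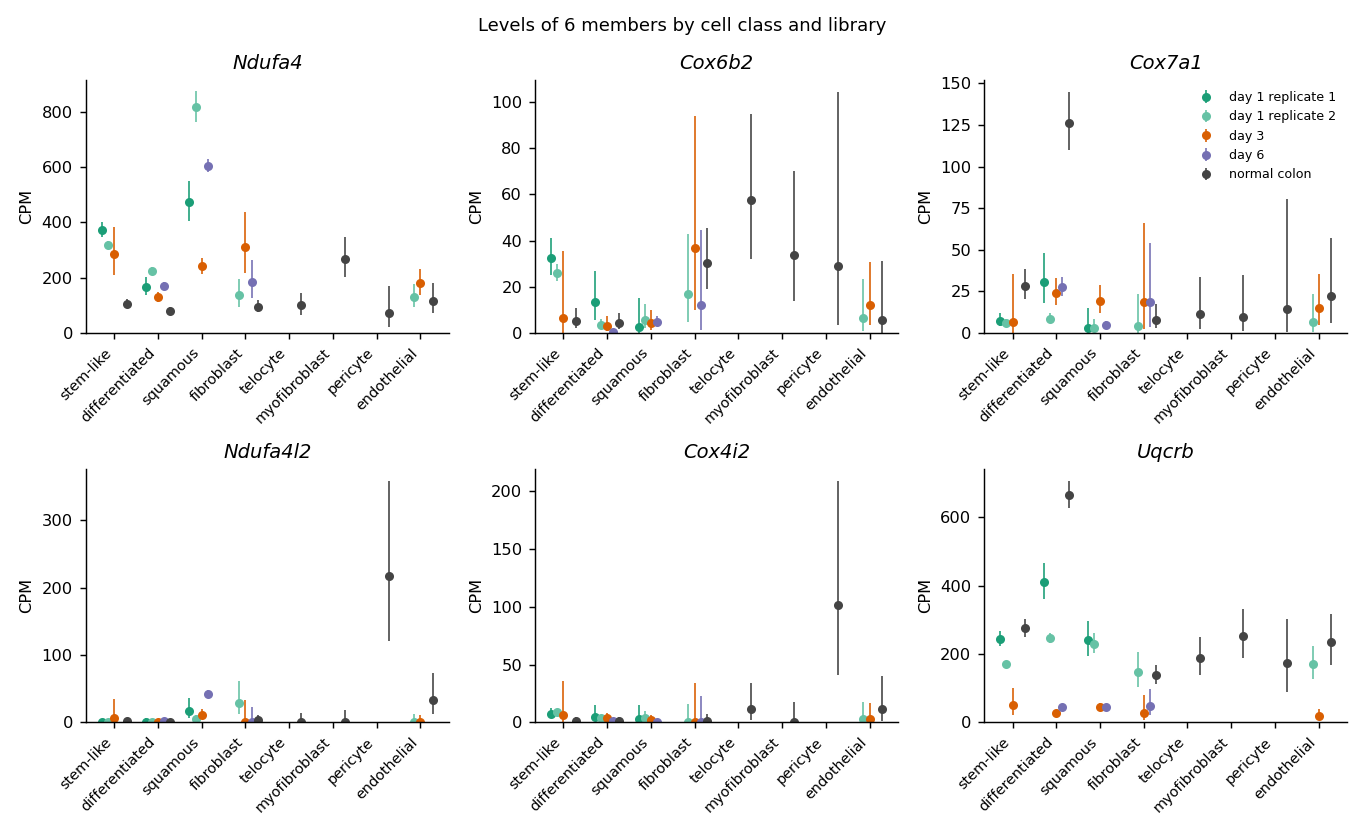
CPM (y axis) of 6 members in 8 cell classes (x axis) by library (colour), with 95% exact Poisson intervals. Ndufa4l2 and Cox4i2 are highest in normal pericytes, at 217 and 101 CPM, Ndufa4 reaches 815 CPM in squamous cells of day 1 replicate 2, Cox7a1 reaches 126 CPM in normal surface colonocytes, and Uqcrb stays at or below 103 CPM in every class of days 3 and 6.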

How the data were processed

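Single-cell RNA-seq with UMIs was measured in 5 libraries. The deposited tables hold counts: the authors aligned reads to GRCm38 and counted UMIs per gene and barcode with dropEst, without normalization, and 0 table columns were left unused. Tables with genes in rows were transposed, and cells under 500 genes or over 15% mitochondrial counts were removed. Treated libraries together and the normal library alone were clustered (scanpy 1.11.5, leidenalg 0.10.2, 2000 variable genes without members or the other mitochondrial lists, 20 components, 20 neighbours, resolution 1). Clusters were named from marker lists by a rule set after the clusters were seen. The members and lists were chosen with earlier results of these data known. Doublets were not removed in the main analysis. As an alternative, cells in the top 6% of Scrublet scores per library were left out.

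Sums of at least 20 cells per library and class were tested with edgeR 4.0.16 (quasi-likelihood, TMM, filterByExpr, Benjamini-Hochberg over all genes tested, threshold 0.05) on genes in all 4 tumor tables, with library as a block where classes were compared. DESeq2 1.42.0, other scalings, filters, clusterings and left-out libraries were alternatives. The normal library, 1 sample, has exact Poisson intervals and no test, with a 2-fold limit and at least 20 UMIs per gene. Depth was 5124405 to 16786230 UMIs per library. edgeR was tested on simulated counts. Reads shared with processed pseudogenes, common for these genes, could be split in counting. Members named are fixed subunits of each complex, isoform pairs, and the up to 5 called members with the largest change in each direction. The time comparisons used 2 libraries a side without a batch term. The normal library was clustered apart, so class borders differ between normal and tumor cells. RefSeq names and windows are on GRCm38.p6, where 93 members matched, 3 by synonym. No file used here gives the proteins.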

Additional observations from a re-analysis of the deposited data

How the results depend on the processing

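For squamous against columnar cells, the 4 members called became 7 without a filter on low counts and 2 at clustering resolution 0.5. They became 7 with library size alone and 1 to 4 with a library left out. Among all genes, 2039 of 12253 were called in the main fit, 2772 of 18013 without a filter and 1302 of 12050 at resolution 0.5. With library size alone 2003 of 12253 genes were called, and 1041 of 12514 to 1735 of 12551 with a library left out. For fibroblasts, the 3 became 1 by DESeq2, 15 without a filter, 1 at resolution 0.5 and 1 with library size alone. They became 1 without the day 3 columnar cluster and 0 to 6 with a library left out. Among all genes, 1227 of 11532 were called in the main fit, 1215 of 11532 by DESeq2 and 2057 of 17970 without a filter. Resolution 0.5 gave 885 of 11513 genes and library size alone 1214 of 11532. Without the day 3 cluster 1006 of 9619 genes were called, and 1023 of 11716 to 1998 of 12986 with a library left out. For differentiated against stem-like cells, the 41 became 24 by DESeq2, 20 at resolution 2, 16 with library size alone and 13 to 36 with a library left out, and resolution 0.5 left too few stem-like sums to fit. Of all genes, 4154 of 10960 were called in the main fit, 2695 of 10960 by DESeq2 and 2847 of 10430 at resolution 2. With library size alone 5091 of 10960 genes were called, and 2401 of 9745 to 4183 of 12068 with a library left out. Late against early, the 0 in columnar cells became 3 by DESeq2, where 4.76% of all genes were called. The 0 in squamous cells became 1 by DESeq2, without a filter or with library structure as a term. The 0 for their difference stayed 0 in the settings that kept all 4 libraries. Fits with a library left out hold a lone library on 1 side, so their calls are not given. Library size alone and the day 3 cluster were alternatives chosen after seeing the data.

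The comparisons between classes carry the library as a block. Without that replicate block, 1 member was called for squamous cells, 0 for fibroblasts and 1 for differentiated cells. Of all genes, 719 of 12253, 579 of 11532 and 1521 of 10960 were called in these fits. No replicate numbers pair the libraries across time points.

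Among 212 combinations of a named member and an alternative, 146 kept the call, 66 lost it and 0 changed sign. Ndufa4l2 in squamous cells kept it in all 15, with log2 changes of 4.42 to 5.42 and adjusted p up to 0.0111, but it passed the filter on low counts through the squamous sums and columnar sums held 0 to 9 UMIs, so these values are no measure of its stability. Cox7a1, Ndufa9, Cox6a1 and Uqcrfs1 in differentiated cells kept it in 10 of 11. The summed level of differentiated cells was 15691 CPM in day 1 replicate 2 at resolution 2 and 26386 CPM at day 6 at resolution 0.5. That of normal surface cells was 35025 CPM at resolution 2, 39704 CPM without mitochondrially encoded genes and 35722 CPM as a mean over cells. Normal crypt cells gave 29737 and 27469 CPM in the latter settings, and fibroblasts 11460 CPM as a mean over cells. Other causes were not tested. Counts of 0 to 15 UMIs a sum limit Ndufa4l2 outside day 6 squamous cells, and counts of 0 to 4 limit Cox7b2.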

Other observations

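Genes around the chain had smaller median changes than its subunits, 0.44, between differentiated and stem-like columnar tumor cells. By edgeR with TMM scaling, 20% of all 10960 genes tested were higher in differentiated cells and 17.9% lower. Of 74 mitochondrial ribosome genes tested, 7 were higher and 1 lower, with a median log2 change of 0.19. Of 17 genes of the tricarboxylic acid cycle, which feeds electrons to complexes I and II, 5 were higher and 2 lower, with a median of 0.20. Of 27 electron carriers and assembly factors outside the members, 7 were higher and 1 lower, with a median of 0.10. Of 9 regulators tested, 3 were higher and 1 lower. In squamous against columnar cells 1 of 17 cycle genes and 2 of 10 regulators were lower by edgeR, where 9.08% of 12253 genes were. The cycle genes all had a lower fitted level in squamous cells, with log2 changes from -0.74 to -0.04.

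In the normal colon the tricarboxylic acid cycle genes had a median log2 ratio of 1.35 between surface colonocytes and fibroblasts and 0.02 between surface and crypt colonocytes, where the subunits had 1.75 and 0.29. The mitochondrial ribosome had 0.73 and -0.29. The mitochondrially encoded subunits had 1.39 and 0.34.

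Paneth-like cells of the tumors held 26457 CPM of the subunits in day 1 replicate 1 and 22088 CPM in day 1 replicate 2, above the columnar sums of the same libraries.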
